A study of Lactuca sativa with 18 samples.

Results

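Tall Guzmaine (TG) is a romaine lettuce (Lactuca sativa) that browns strongly once it has been cut. The storage change described here is the difference between TG leaf midribs frozen on day 3 and TG leaf midribs frozen on day 0, and it rests on 4 of the 18 samples of the series, 2 per day. The comparisons with other cultivars use day 3 and day 0 midribs of Parris Island Cos (PC), a low-browning romaine, and of Clemente (CL), a medium-browning line bred from a PC by TG cross, again with 2 samples per cultivar and day. Per the series' design text, all heads had been cooled after harvest, moved by refrigerated truck and kept cold another day before the ribs were cut, so day 0 material was itself several days from the field. The cut pieces were then kept cold and frozen in liquid nitrogen. Whether the paired samples of a group are different heads is not stated; the p-values therefore reflect sample-to-sample spread, which may be technical.

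Enzymatic browning follows when cutting breaks cell compartments and brings phenolic compounds into contact with polyphenol oxidases and peroxidases, which oxidise them to quinones that form brown pigments. Wounded lettuce midrib is known for making new phenolic compounds through the phenylpropanoid pathway, which begins with phenylalanine ammonia-lyase. Detached tissue in cold storage also keeps respiring and draws on its stored sugars and proteins. The name table used here pairs gene identifiers with symbols and RNA classes but, apart from a few genes, not with products, so genes are given by their symbols (LOC followed by the NCBI GeneID) and the browning enzymes are not picked out. Tissue markers were likewise not applied, and the midrib label was not checked against them.

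The TG libraries held 50375868 and 45161758 counts on day 3 and 53100534 and 45726082 counts on day 0. Replicates correlated at 0.968 on day 3 and 0.963 on day 0 (Pearson's r of log2 CPM over genes, and genes are no independent replicates). The median absolute difference between replicates was 0.30 on day 3 and 0.40 on day 0 on the log2 scale. On both days the TG replicates differed by more than sampling noise. Levels are CPM, counts per 1000000 counts of the effective library size. They are not corrected for gene length, so they compare samples within a gene. In bulk tissue, fewer cells of a type and less RNA per cell cannot be told apart.

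Many genes changed over storage in TG midribs, about as many upward as downward. Of 21757 genes, 5963 changed (27.4%), of which 2963 rose (13.6%) and 3000 fell (13.8%), at an adjusted p under 0.05 in edgeR's quasi-likelihood test with Benjamini-Hochberg adjustment. In 5957 of the 5963 the day 3 and day 0 libraries did not overlap. Over all tested genes, called or not, 7318 were higher in both day 3 libraries than in both day 0 libraries and 6882 were lower. Without day 3 replicate 1 the number of changed genes was 2638. Fitted to the TG libraries alone it was 3922.

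Among called genes, rises had the larger median size. The median log2 fold change was 1.59 among genes that rose and -1.28 among genes that fell, beside 0.01 over all genes tested. With genes that had no counts on a day put at a bound of 3 counts per library, these medians were 1.58, -1.28 and 0.00. On the same footing, 2202 genes rose and 1911 fell by at least 2-fold, 535 rose and 373 fell by at least 8-fold, and 57 rose and 25 fell by at least 64-fold. The balance shifted with the level of the gene. Among the 4628 genes with a mean of 0.1 to 1 CPM over the TG libraries, 6.01% rose and 3.28% fell. Among the 2115 genes with a mean of 100 to 1000 CPM, 14.4% rose and 29.8% fell, with a median log2 fold change of -0.25. The 98 genes at 1000 CPM or more held 17 that rose and 21 that fell.

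**Figure D1:**
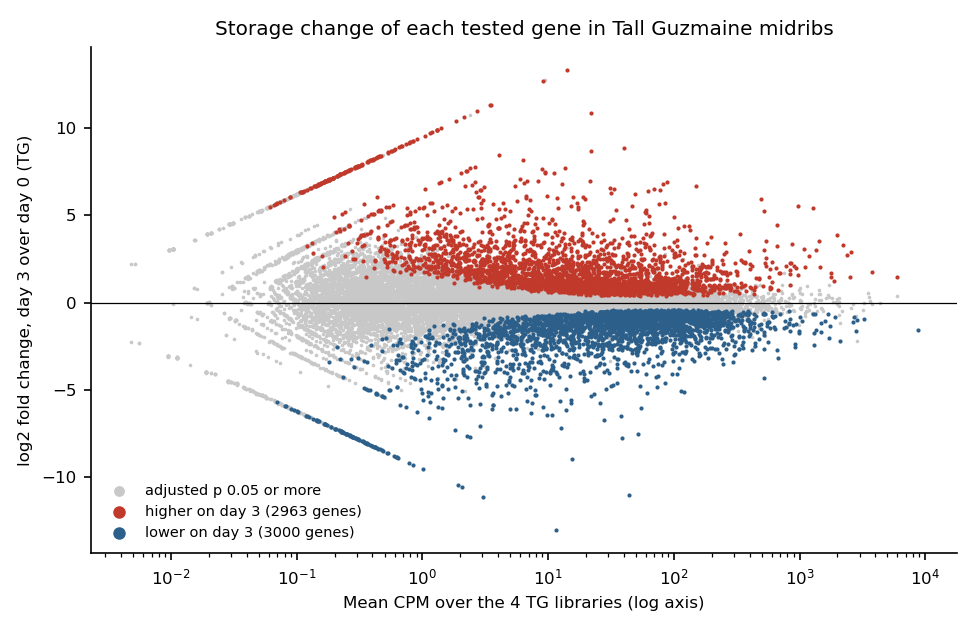
Each point is a gene tested and detected in TG, with its mean CPM over the 4 TG libraries on a log x axis and its log2 fold change of day 3 over day 0 on the y axis; red points rose, blue points fell and grey points had an adjusted p of 0.05 or more. Genes that rose (2963) and fell (3000) are near equal in number, and the straight outer bands at low CPM are genes with few or no counts on a day, whose fitted fold depends on the prior count.

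The genes with the steepest rises were close to silent on day 0. LOC111882072 had 26.9 and 29.3 CPM in the day 3 libraries, against 0 counts in both day 0 libraries, and was at least 453-fold higher on day 3 (adjusted p = 3.32e-05, edgeR quasi-likelihood, Benjamini-Hochberg). LOC111890702 had 42.4 and 45.0 CPM on day 3, against 2 counts in day 0 replicate 1 and 0 in replicate 2, a ratio of 2122 with a 95% exact interval of 587 to 17524 that covers counting error only (adjusted p = 5.13e-06). Both genes were at or near 0 in each TG day 0 library, and their TG replicates lay close together on day 3. LOC111897754 stood at 66.8 and 94.7 CPM on day 3, against 0.0381 and 0.313 CPM on day 0 (log2 fold change 8.89 with SE 0.56, adjusted p = 2.97e-05). LOC111904670 reached 142 and 208 CPM on day 3, against 1.98 and 0.895 CPM on day 0 (6.92 ± 0.56, adjusted p = 8.78e-05). These were the highest day 3 levels among the 8 steepest rises. The other 4, LOC111888190, LOC111921165, LOC111911019 and LOC111881939, had 12.7 to 59.6 CPM on day 3 and at most 0.403 CPM on day 0, with fitted log2 fold changes of 6.95 to 8.67. LOC111888190 and LOC111921165 had 0 counts in day 0 replicate 1, and without replicate 2, which held their 10 and 12 counts, the fitted values were 13.98 and 13.28. They were 7.60 and 6.63 without day 0 replicate 1, and LOC111888190 was at 8.03 without day 3 replicate 2. LOC111897754 moved to 10.96 without day 0 replicate 2 and to 7.996 without day 0 replicate 1. LOC111890702 moved to 13.95 without day 0 replicate 1 and to 10.08 without replicate 2, LOC111911019 to 8.14 without day 0 replicate 2 and to 6.66 without day 3 replicate 1, LOC111881939 to 6.34 without day 3 replicate 1 and LOC111904670 to 7.61 without day 0 replicate 1. Each of the 8 calls held with any TG library left out.

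The steepest falls ended near 0. LOC111900419 had 0 counts in both day 3 libraries, against 17.6 and 28.4 CPM in the day 0 libraries, and was at least 383-fold lower on day 3 (adjusted p = 0.000353). LOC111886538 had 0 and 0.083 CPM on day 3, against 98.6 and 77.4 CPM on day 0 (log2 fold change -11.01 with SE 1.11, adjusted p = 0.000226). Its size rests on 4 counts in day 3 replicate 2: the fitted value was -14.96 without that library and -9.98 without day 3 replicate 1. LOC111902332 had 0.424 and 1.24 CPM on day 3, against 70.8 and 79.4 CPM on day 0 (-6.50 ± 0.50, adjusted p = 6.31e-05), the closest day 0 replicates of the 8. The remaining 5, LOC111914689, LOC111901499, LOC111901693, LOC111914488 and LOC111886966, stood at 0.83 CPM or less on day 3 with log2 fold changes of -6.73 to -8.95. Their day 0 replicates were further apart. LOC111886966 had 13.4 CPM in day 0 replicate 1 and 96.5 CPM in replicate 2, and its fold change was -4.69 without replicate 2, -7.54 without replicate 1 and -7.53 without day 3 replicate 1. LOC111901499 had 112 CPM in day 0 replicate 1 and 41.6 CPM in replicate 2, and LOC111914488 had 34.7 CPM and 15.4 CPM in the same libraries. Without day 0 replicate 1 these were at -6.85 and -6.49. LOC111914689 lay between -13.46 and -7.91 with a TG library left out, the lowest without day 3 replicate 2 and the highest without day 3 replicate 1. LOC111901693 lay at -8.55 and -6.92, and LOC111902332 at -7.45 and -5.89, without day 3 replicate 2 and without day 3 replicate 1.

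Few genes with 0 counts in both libraries of a day reached 10 CPM on the other day. Of 673 tested genes with no counts on day 0, 134 rose, and 2 of these reached 10 CPM or more on day 3. Of 555 tested genes with no counts on day 3, 88 fell, and 1 had been at 10 CPM or more on day 0. By fitted fold change, which for these genes depends on the prior count, 179 genes rose and 107 fell by at least 64-fold, against the 57 and 25 counted with such genes at their bound. A count of 0 in a TG library allows a level of up to about 0.060 CPM on day 3 and 0.062 CPM on day 0, taking 3 counts as the limit.

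The largest gains in CPM, which take no account of gene length, fell mostly on genes that were already abundant on day 0. LOC111916361 had 9748 and 7741 CPM on day 3, against 2853 and 3526 CPM on day 0 (log2 fold change 1.46 with SE 0.22, adjusted p = 0.00126). LOC111896942 had 6465 and 5134 CPM on day 3, against 1828 and 1534 CPM on day 0 (1.79 ± 0.25, adjusted p = 0.000852). Each gained more than the distance between its replicates on either day. LOC111905147 stood at 4477 and 3510 CPM on day 3, against 435 and 379 CPM on day 0 (3.29 ± 0.25, adjusted p = 5.14e-05). LOC111905148, whose GeneID is the next number, stood at 4556 and 3764 CPM on day 3, against 581 and 663 CPM on day 0 (2.74 ± 0.23, adjusted p = 8.02e-05). Both genes stood higher in each day 3 library than in either day 0 library. On day 0, replicate 2 lay below replicate 1 for LOC111905147 and above it for LOC111905148. Reads shared between near-identical copies would make such values uncertain. The other rises of this size were less steady on day 0. LOC111901914 had 4856 and 4195 CPM on day 3, against 323 and 903 CPM on day 0 (2.88 ± 0.68, adjusted p = 0.0127), and the adjusted p was 0.0867 without day 0 replicate 1 and 0.0568 without day 3 replicate 1. Without day 0 replicate 2 its fold change was 3.82. LOC111879796 had 4442 and 2950 CPM on day 3, against 98.2 and 405 CPM on day 0 (3.88 ± 0.70, adjusted p = 0.00371), and gave 3.19 without day 0 replicate 1 and 5.24 without day 0 replicate 2. LOC111901914 and LOC111879796 had larger fold changes in PC (log2 8.05 and 8.35), from lower day 0 levels. In PC, LOC111901914 had 1095 and 1121 CPM on day 3, against 7.14 and 1.20 CPM on day 0. LOC111879796 had 2134 and 2068 CPM there on day 3, against 8.88 and 3.95 CPM on day 0. Both genes were lower in PC than in TG on each day. Their TG minus PC differences were -5.17 and -4.48 (adjusted p = 0.0101 and 0.0154, edgeR quasi-likelihood). For the other genes of this paragraph, the difference from PC did not pass the test.

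LOC111903698 had the largest drop in mean CPM of the named genes, with 3966 and 4869 CPM on day 3, against 14578 and 11393 CPM on day 0 (log2 fold change -1.56 with SE 0.41, adjusted p = 0.0187). The day 3 libraries lay far below the day 0 libraries, yet with 1 library fewer the adjusted p was 0.079 without day 0 replicate 1, 0.129 without day 3 replicate 1 and 0.0559 without day 3 replicate 2. In PC the same gene had 2599 and 2461 CPM on day 3, against 1070 and 368 CPM on day 0, a change in the other direction. In CL the gene fell as in TG, with 4831 and 4935 CPM on day 3, against 16665 and 12984 CPM on day 0. LOC111877125 had 656 and 722 CPM on day 3, against 3216 and 2327 CPM on day 0 (-2.01 ± 0.30, adjusted p = 0.00129). LOC111905281 had 2355 and 2154 CPM on day 3, against 4431 and 4169 CPM on day 0 (-0.93 ± 0.18, adjusted p = 0.00399). These calls held with each TG library left out. LOC111896763, LOC111893041 and LOC111887933 fell by 1.64, 2.21 and 1.09 on the log2 scale, with adjusted p of 0.00435, 0.00921 and 0.0146. The adjusted p was 0.0507 for LOC111896763 without day 3 replicate 1, 0.0532 for LOC111893041 without day 0 replicate 1, and 0.081 and 0.0952 for LOC111887933 without day 0 replicate 1 and without day 3 replicate 2. LOC111893041, at 347 and 1142 CPM on day 3, also depended on its day 3 replicates, with -1.57 without replicate 1 and -3.30 without replicate 2.

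**Figure D2:**
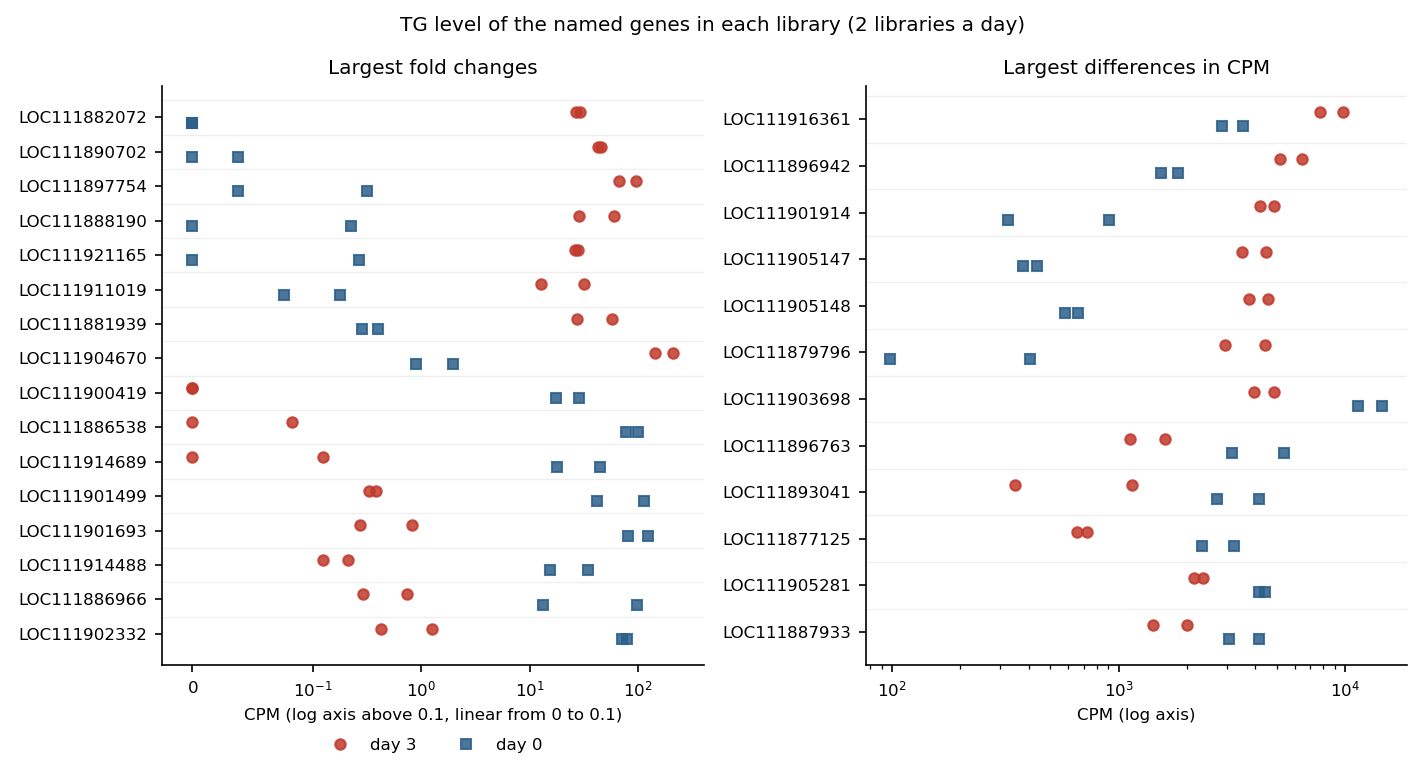
CPM of the 16 genes with the largest fold changes (left; log x axis above 0.1, linear below it) and of the 12 genes with the largest differences in mean CPM (right, log x axis) in each TG library; circles are the 2 day 3 libraries and squares the 2 day 0 libraries. No gene's circles and squares overlap, the left genes move between 1.98 CPM or less on one day and 12.7 CPM or more on the other, and the right genes differ in size of change, from LOC111879796 down to LOC111905281.

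The 2 genes given here as enzymes, whose symbols name no product, did not pass the test in TG. LOC111889525, triosephosphate isomerase of glycolysis, had 466 and 512 CPM on day 3, against 473 and 519 CPM on day 0 (log2 fold change -0.02 with SE 0.16, adjusted p = 0.957). LOC111883376, a cytosolic glutamine synthetase, which assimilates ammonium and is known in senescing leaves for recycling nitrogen, had 862 and 941 CPM on day 3, against 741 and 736 CPM on day 0 (0.29 ± 0.17, adjusted p = 0.225). Its day 3 libraries lay above its day 0 libraries. In PC, where 39.6% of all genes changed, it rose, with 846 and 859 CPM on day 3, against 593 and 562 CPM on day 0 (0.56, adjusted p = 0.0213), and the TG and PC changes differed by -0.27 ± 0.23, adjusted p = 0.485.

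Some of the strongest changes lay side by side in the genome. The gene order is that of the Lsat_Salinas_v11 name table, and the authors' build is unknown here, so it serves only to say which genes are neighbours. Among protein-coding genes that rose and had a tested neighbour, 24.5% had a neighbour that also rose, beside 19.8% of all tested genes, and for falls the shares were 24.8% and 20%. For fitted changes of at least 8-fold, which 2.78% of all genes showed as rises and 1.88% as falls when genes with no counts on a day kept their fitted value, the shares were 11.7% of strongly rising genes beside 3.65% of all tested genes, and 13.4% of strongly falling genes beside 2.65% of all tested genes. With such genes at their bound (2.46% and 1.71% of all genes), the shares were 11.1% beside 3.24% for rises and 12.3% beside 2.44% for falls. Tandem duplicates that share sequence can share reads, and the labels do not say how reads with several matches were counted.

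A total of 4 groups held at least 4 such genes of the same direction with at most 3 other protein-coding genes between one and the next, a rule chosen after the values were seen. The genes in between were not among the genes tested. The most abundant group held LOC111879817, LOC111879811, LOC111879809, LOC111879796 and LOC111879795, 5 of 7 protein-coding genes spanned. LOC111879817 had 2601 and 2372 CPM on day 3, against 12.7 and 103 CPM on day 0 (log2 fold change 5.42 with SE 0.95, adjusted p = 0.00316). LOC111879809 had 2319 and 1488 CPM on day 3, against 7.31 and 76.1 CPM on day 0 (5.51 ± 0.96, adjusted p = 0.00298). LOC111879795 had 351 and 239 CPM on day 3, against 1.07 and 4.74 CPM on day 0 (6.67 ± 0.71, adjusted p = 0.00043). In these 3 genes and in LOC111879796, day 0 replicate 2 stood above replicate 1. Without replicate 2 the fold changes were 7.62, 8.03 and 8.12, and without replicate 1 they were 4.59, 4.64 and 5.95. LOC111879811 was far lower, at 6.27 and 5.52 CPM on day 3 and 0.495 and 0.716 CPM on day 0 (3.28 ± 0.70, adjusted p = 0.00683).

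The next group held LOC111881939, LOC111881935, LOC111881937 and LOC111881938, 4 of 6 genes spanned. LOC111881938 had 198 and 102 CPM on day 3, against 3.03 and 2.82 CPM on day 0 (log2 fold change 5.68 with SE 0.50, adjusted p = 0.000126). LOC111881935 had 162 and 82.2 CPM on day 3, against 1.90 and 0.94 CPM on day 0 (6.41 ± 0.70, adjusted p = 0.00033), and gave 7.02 without day 0 replicate 1. In all 4 genes day 3 replicate 1 stood above replicate 2, and both stood far above day 0. All 4 also rose in PC and in CL, where each had at least 67.6 CPM in every day 3 library and at most 1.93 CPM in every day 0 library. A low-count group held LOC111886060, LOC111886074, LOC111886104, LOC111886105 and LOC111886119, 5 of 10 genes spanned. Its leading gene LOC111886119 had 9.33 and 29.0 CPM on day 3, against 0.228 and 0.313 CPM on day 0 (6.14 ± 1.04, adjusted p = 0.00254), with 5.11 without day 3 replicate 2 and 6.76 without day 3 replicate 1. The other 4 had 0.193 to 3.94 CPM on day 3 and at most 4 counts in a day 0 library, and LOC111886104, with 0 counts on day 0, was at least 3.87-fold higher, short of 8-fold at its bound. LOC111886060, with 2 day 0 counts in all, had an adjusted p of 0.149 without day 0 replicate 1, 0.087 without day 3 replicate 1 and 0.0993 without day 3 replicate 2.

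The single falling group, LOC111883736, LOC111883707, LOC111883705 and LOC111883704, made up 4 of 5 genes spanned. LOC111883704 had 1.70 CPM in each day 3 library, against 12.5 and 27.0 CPM on day 0 (log2 fold change -3.54 with SE 0.55, adjusted p = 0.00144). LOC111883705 had 0.694 and 0.29 CPM on day 3, against 6.32 and 12.7 CPM on day 0 (-4.26 ± 0.61, adjusted p = 0.00105). In all 4 genes day 0 replicate 2 was the highest library. Without it the fold changes ran from -4.31 for LOC111883707 to -2.53 for LOC111883736. LOC111883705 was at -4.995 without day 3 replicate 1. LOC111883707 had an adjusted p of 0.066 without day 3 replicate 1. In PC the 4 genes had at most 1.78 CPM in a day 0 library, and the TG minus PC differences in log2 fold change ran from -7.72 to -4.30, with adjusted p of 0.00181 to 0.0181.

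**Figure D3:**
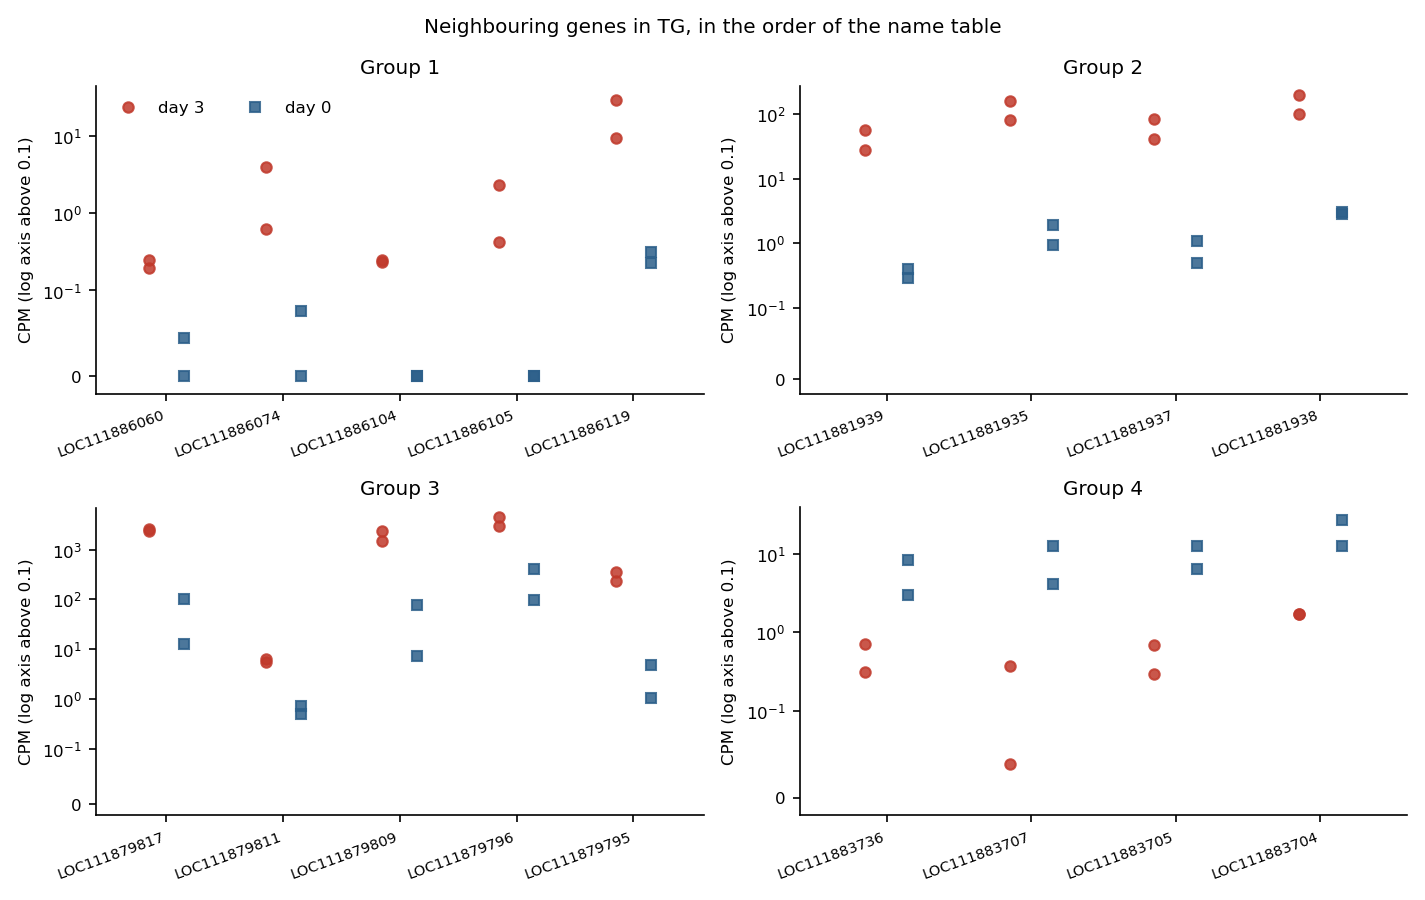
CPM in each TG library (y axis, log above 0.1 and linear below it) of 4 groups of neighbouring genes, in the order of the name table; circles are the 2 day 3 libraries and squares the 2 day 0 libraries. Groups 1 to 3 lie higher on day 3, with group 3 at the highest CPM for LOC111879817, LOC111879809 and LOC111879796, and group 4 lies lower on day 3.

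Small nucleolar RNAs (snoRNAs) guide the chemical modification of ribosomal and small nuclear RNAs in the nucleolus and are often encoded within introns of other genes. In TG midribs most of those tested were higher on day 3. Of 128 snoRNA genes tested, out of 2147 in the tables, 22 rose (17.2%) and 0 fell, beside 13.6% and 13.8% of all genes, in edgeR's quasi-likelihood test. The log2 fold change was above 0 in 102 of the 128, and its median was 1.38, or 1.35 with the 9 genes that had no counts on a day put at their bound, beside 0.01 over all genes. A low-count gene can pass the filter on its day 3 libraries alone, so the filter has a part in these values. Without a filter on low counts, 214 snoRNA genes were tested, 22 rose and 0 fell, and their median was 0.97. Summed over all snoRNA genes, there were 150 and 137 CPM of the unscaled library total on day 3, against 67.9 and 56.1 on day 0. Both day 3 libraries lay above both day 0 libraries, although the whole class made up a very small part of each library. Beside other genes of like level, 0 of 8 snoRNA genes rose below 0.1 CPM, against 0.724% of the others, 14% rose beside 5.83% between 0.1 and 1 CPM, and 36.8% of 19 beside 15.7% between 1 and 10 CPM. DESeq2 called 31 up and 0 down, and with a TG library left out 9 to 16 rose and 0 fell, 9 of them without day 3 replicate 1, 10 without day 0 replicate 1 and 13 without day 0 replicate 2. Fitted to the TG libraries alone, 11 rose and 0 fell.

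The snoRNA gene with the most counts was LOC111876079, with 20.5 and 20.7 CPM on day 3, against 2.53 and 2.06 CPM on day 0 (log2 fold change 3.16 with SE 0.30, adjusted p = 0.000136). It lies within LOC111876071, whose own log2 fold change was 0.91 (adjusted p = 0.0729). LOC111915776 and LOC111915777 are neighbours: LOC111915777 had 4.92 and 5.77 CPM on day 3, against 0.533 and 0.537 CPM on day 0 (3.31 ± 0.57, adjusted p = 0.00246), and LOC111915776 had 2.16 and 1.64 CPM on day 3, against 0.171 and 0.112 CPM on day 0 (3.71 ± 0.74, adjusted p = 0.00501). LOC111914536 had 5.92 and 7.07 CPM on day 3, against 1.85 and 2.42 CPM on day 0 (1.61 ± 0.29, adjusted p = 0.00297). These 4 genes rose in PC and CL as well. LOC111888251, LOC111910916, LOC111910918, LOC111901255 and LOC111903808 had 0 counts on day 0 and 0.135 to 0.539 CPM on day 3, at least 4.16-fold to 6.29-fold higher. Of the 22 snoRNA genes that rose, 13 lay next to another tested snoRNA gene and 8 next to another that rose. The shares over all 128 tested snoRNA genes were not computed, so whether these counts are high was not tested. Copies of a snoRNA can be near identical, and their counts are uncertain to that extent.

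Reads from a host gene's unspliced transcript would also count towards a snoRNA within it. Of the 22 genes, 10 lay inside a protein-coding or lncRNA gene, beside 66 of all 128 tested snoRNA genes. For 7 of the 10 that gene was tested. The host rose in 1 case: LOC111916302, with a log2 fold change of 4.56 (adjusted p = 0.0017), holds LOC111916456, which had 0.694 and 0.249 CPM on day 3, against 0 and 0.0224 CPM on day 0 (5.17 ± 1.14, adjusted p = 0.0082). The other 6 hosts had log2 fold changes of 0.80 to 1.91 and adjusted p of 0.0699 to 0.69. The part of host transcripts in the snoRNA counts was not tested.

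By its median and its summed counts, the class was higher on day 3 in the other cultivars too. Of the same 128 genes, 26 rose and 0 fell in PC, where 21.5% of all genes rose and 18.1% fell, and 9 rose and 2 fell in CL, where 16.5% rose and 15.5% fell. The share of snoRNA genes that rose was thus no larger than that of all genes in PC, and smaller in CL. Median log2 fold changes were 1.29 in PC and 1.0 in CL. Of the 22 that rose in TG, 12 were among the 26 of PC, 54.5% of the TG list and 46.2% of the PC list, and 6 were among the 9 of CL, 27.3% of the TG list and 66.7% of the CL list. Of the 128, 0 had a TG change that passed the test of difference from the PC or CL change, at adjusted p under 0.05 in edgeR's quasi-likelihood test. Unadjusted p-values were under 0.05 for 9 of the 128 against PC and 12 against CL, and DESeq2 called 3 against each.

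**Figure D4:**
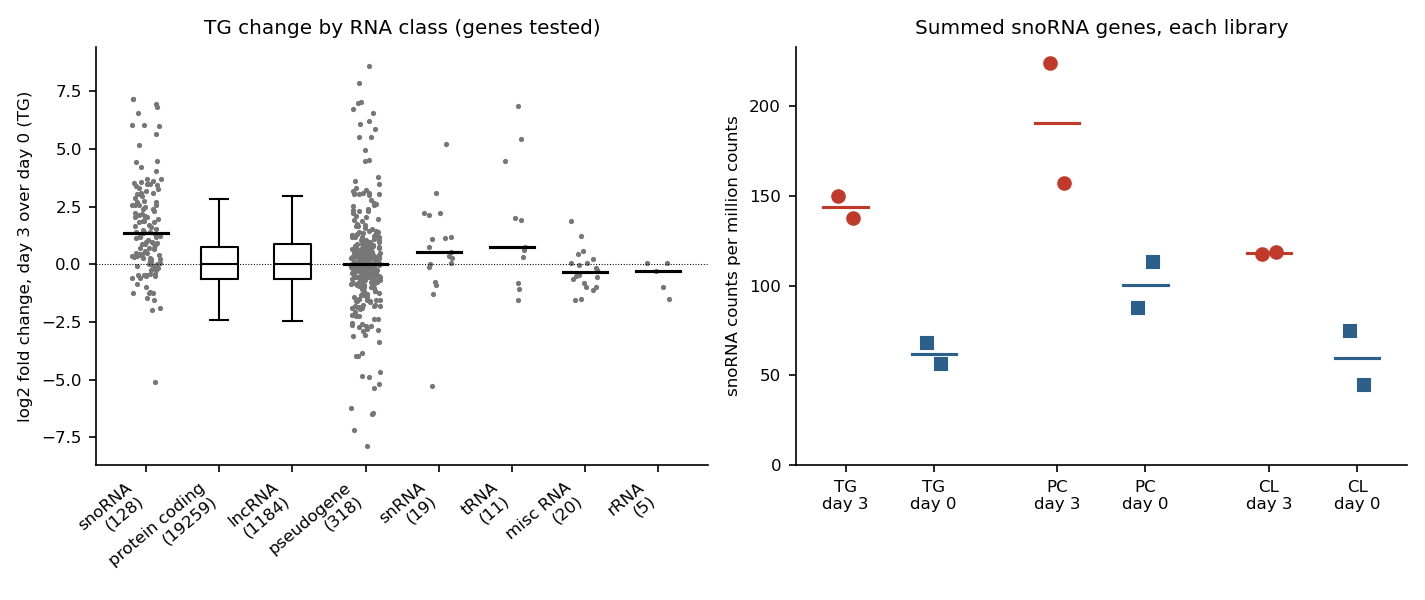
Left, log2 fold change of day 3 over day 0 in TG by RNA class, with the number of genes tested under each class; bars mark medians, points are genes, and the boxes of the largest classes span the quartiles with whiskers at the 5th and 95th percentiles. Right, summed snoRNA CPM of the unscaled total in each library of TG, PC and CL, with circles for day 3, squares for day 0 and lines at the mean of 2 libraries: the snoRNA median lies at 1.38, the lncRNA and protein-coding medians lie near 0, and in each cultivar both day 3 libraries lie above both day 0 libraries.

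Of 1184 long non-coding RNA (lncRNA) genes tested, 81 rose and 54 fell (6.84% and 4.56%), beside 13.6% and 13.8% of all genes. Their median log2 fold change was 0.01. Their median level in TG was 0.94 CPM, against 10.8 CPM for protein-coding genes. Among genes of any class at 0.1 to 1 CPM, 6.01% rose and 3.28% fell. The part of level in the lncRNA shares was not tested. The highest-count lncRNA gene to rise was LOC111883375, with 163 and 159 CPM on day 3, against 70.7 and 44.6 CPM on day 0 (1.48 ± 0.32 as SE, adjusted p = 0.00814, and 0.0504 without day 0 replicate 2). The highest-count one to fall was LOC111909156, with 63.8 and 80.5 CPM on day 3, against 146 and 109 CPM on day 0 (-0.82 ± 0.20, adjusted p = 0.0144, 0.0957 without day 0 replicate 1 and 0.139 without day 3 replicate 1). Both pairs of days stood apart, by 1.48 and -0.82 on the log2 scale. LOC111901175 fell by 1.16 in TG on the log2 scale (adjusted p = 0.0437, and 0.0696 to 0.184 with any TG library left out) and rose by 2.91 in PC, a difference of -4.08 with an adjusted p of 0.00317. Of 19 snRNA and 11 tRNA genes, 0 rose and 0 fell, and of 20 genes of the class misc_RNA 3 fell (15%) and 0 rose, beside the same 13.8% and 13.6% of all genes. Of 5 ribosomal RNA genes LOC111918867 fell, with 24.8 and 25.3 CPM on day 3, against 92.8 and 48.0 CPM on day 0 (-1.49 ± 0.38, adjusted p = 0.0177). Ribosomal RNA reads together made up 6768 and 5319 CPM of the unscaled total on day 3, against 7039 and 3875 on day 0, and the days overlapped.

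The comparison with PC asks where the high-browning cultivar's response to storage departs from that of the low-browning cultivar. The TG and PC changes differed for 2652 of 21757 genes (12.2%), by edgeR's quasi-likelihood test of the difference, with the TG change more positive for 1035 (4.76%) and more negative for 1617 (7.43%). With unscaled libraries it was 1372 to 1342. Leaving out PC day 3 replicate 1 gave 1007 genes, its replicate 2 gave 1186, TG day 3 replicate 2 gave 1378, its replicate 1 gave 1409, and PC and TG day 0 replicate 2 gave 1611 and 1706. Among genes that fell in TG, 542 fell further than in PC or moved against it and 92 fell less. Among genes that rose, 340 had a more positive change than in PC and 256 a less positive change. The TG libraries enter both the TG call and the difference, so these splits partly follow from how the genes were chosen. The remaining 1422 were not called in TG. Of the 2963 genes that rose in TG, 1923 were among the 4668 that rose in PC, 64.9% of the TG list and 41.2% of the PC list, and 98 were among those that fell in PC. Of the 3000 that fell in TG, 1607 were among the 3947 that fell in PC, 53.6% and 40.7% of the lists, and 137 were among those that rose.

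The largest departures came from genes at different levels on day 0. LOC111893813 had 10.5 and 11.6 CPM on day 3, against 0.0761 and 0.313 CPM on day 0 in TG (log2 fold change 5.85 with SE 0.82, adjusted p = 0.0011), while PC had 9.20 and 9.79 CPM on day 3, against 38.7 and 144 CPM on day 0. The gene rose in TG and fell in PC and reached a like level in both by day 3 (difference 9.12 ± 1.05, adjusted p = 0.00169). The difference was 7.88 when PC day 0 replicate 2 was left out and 10.41 when TG day 0 replicate 2 was. The TG fold change was 7.14 in the second case, and 5.12 when TG day 0 replicate 1 was left out instead. LOC111910225 had 29.2 and 10.8 CPM on day 3, against 3.04 and 4.97 CPM on day 0 in TG, and 4.67 and 2.99 CPM on day 3, against 60.5 and 174 CPM on day 0 in PC (difference 7.25 ± 0.97, adjusted p = 0.00317). LOC111920231 had 5.05 and 3.05 CPM on day 3, against 1.69 and 0.627 CPM on day 0 in TG, and 2.14 and 2.22 CPM on day 3, against 36.1 and 84.4 CPM on day 0 in PC (difference 6.58 ± 0.75, adjusted p = 0.00152). The opposed directions hold in every library of both genes. Their TG rise on its own was lost with a library left out: the adjusted p was 0.075 to 0.208 for LOC111910225 without day 0 replicate 1, day 0 replicate 2 or day 3 replicate 1, and 0.123 and 0.169 for LOC111920231 without day 0 replicate 2 and without day 3 replicate 1. LOC111919481 fell in both, to 0.54 CPM in each day 3 library, against 2.44 and 6.45 CPM on day 0 in TG, and to 0.143 and 0.145 CPM on day 3, against 91.0 and 236 CPM on day 0 in PC (difference 7.10 ± 1.15, adjusted p = 0.00618). Its TG fall had an adjusted p of 0.0712 to 0.0975 without day 0 replicate 2, day 3 replicate 1 or day 3 replicate 2.

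In the other direction stood genes with 0 counts in both PC day 0 libraries. LOC111898308 had 86.5 and 72.8 CPM on day 3, against 2.26 and 3.67 CPM on day 0 in TG (log2 fold change 4.75 with SE 0.31, adjusted p = 4.11e-05), and 57.2 and 55.1 CPM on day 3 in PC. LOC111881937, of the second group of neighbours, had 84.0 and 41.2 CPM on day 3, against 1.07 and 0.492 CPM on day 0 in TG (6.31 ± 0.62, adjusted p = 0.000335, and 6.98 without day 0 replicate 1), and 109 and 118 CPM on day 3 in PC. Both genes rose in TG and in PC, and of these 2 cultivars TG alone held counts on day 0. LOC111908135 had 11.7 and 37.4 CPM on day 3, against 9.55 and 2.64 CPM on day 0 in TG, and 144 and 124 CPM on day 3 in PC. LOC111908018 fell to 2.58 and 6.39 CPM on day 3 in TG, against 11.04 and 91.7 CPM on day 0, and had 0.678 and 0.314 CPM on day 3 in PC. The TG changes of these last 2 genes rest on single libraries, since without day 0 replicate 2 the adjusted p was 0.176 for LOC111908135 and 0.283 for LOC111908018. For LOC111908135 it was also 0.312 without day 3 replicate 2, and for LOC111908018 0.191 and 0.0726 without day 3 replicate 1 and replicate 2. The differences from PC had adjusted p of 0.00104 to 0.0326. Their fitted sizes depend on the prior count, because PC was at 0 on day 0.

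Against CL, the medium-browning line, the TG change differed for 214 genes (0.984%), more positive for 91 (0.418%) and more negative for 123 (0.565%). Without a scaling factor 489 genes differed and the split was 91 to 398. The count rests on few libraries: leaving out TG day 3 replicate 1 gave 1, CL day 3 replicate 1 gave 2, CL day 3 replicate 2 gave 1 and TG day 0 replicate 1 gave 678. Leaving out TG day 0 replicate 2 gave 109, TG day 3 replicate 2 gave 84 and CL day 0 replicate 2 gave 96. DESeq2 called 1462. Of the genes that rose in TG 1846 were among the 3585 that rose in CL, 62.3% and 51.5% of the lists, and of those that fell 1977 were among the 3375 that fell in CL, 65.9% and 58.6%. In each direction 20 genes of the TG list moved the opposite way in CL.

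LOC111909907 gave the firmest difference. It had 125 and 121 CPM on day 3, against 80.3 and 63.7 CPM on day 0 in TG (log2 fold change 0.77 with SE 0.16, adjusted p = 0.00707), while CL had 133 and 155 CPM on day 3, against 8.80 and 7.67 CPM on day 0 (difference -3.36 ± 0.24, adjusted p = 0.00115). PC went the way of CL, with 159 and 170 CPM on day 3, against 1.81 and 1.54 CPM on day 0. The day 3 libraries of the 3 cultivars lay close together, and TG stood apart on day 0. LOC111895275 had 123 and 107 CPM on day 3, against 12.6 and 14.5 CPM on day 0 in TG (3.08 ± 0.41, adjusted p = 0.000795). CL had 31.1 and 26.4 CPM on day 3, against 22.0 and 45.7 CPM on day 0, and PC had 20.7 and 19.2 CPM on day 3, against 28.3 and 12.7 CPM on day 0. Here the TG day 3 libraries stood above every other library, and the differences were 3.32 ± 0.55 from CL (adjusted p = 0.0326) and 3.12 ± 0.55 from PC (adjusted p = 0.00785). LOC111912424 and LOC111888057 rose less than in CL, by -5.88 and -4.51 on the log2 scale (adjusted p of 0.0365 and 0.0253), the first with 0 counts in CL on day 0, so that its fitted size depends on the prior count. LOC111914868 fell to 13.6 and 17.7 CPM on day 3 in TG, against 23.2 and 69.3 CPM on day 0, while CL had 40.4 and 57.6 CPM on day 3, against 8.75 and 7.21 CPM on day 0 (difference -4.18 ± 0.60, adjusted p = 0.0226). Its TG fall had an adjusted p of 0.167 without day 0 replicate 2, 0.15 without day 3 replicate 1 and 0.0592 without day 3 replicate 2. LOC111904670, LOC111890702 and LOC111913886 differed from CL by 3.86, 3.82 and 3.50, with adjusted p of 0.0326, 0.0391 and 0.0186. The first 2 genes rose in TG. LOC111913886 fell in TG, by a log2 fold change of -2.29 to -1.79 with a TG library left out, and fell less than in CL. The difference calls of LOC111904670, LOC111890702 and LOC111913886 were lost under 9, 8 and 5 of the 15 alternatives run. Those of LOC111895275, LOC111912424, LOC111888057 and LOC111914868 were lost under 7, 8, 5 and 7, and that of LOC111909907 under 1. LOC111890702 differed from CL by 6.89 without TG day 0 replicate 1 and by 3.02 without TG day 0 replicate 2, and LOC111904670 by 4.55 without TG day 0 replicate 1.

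**Figure D5:**
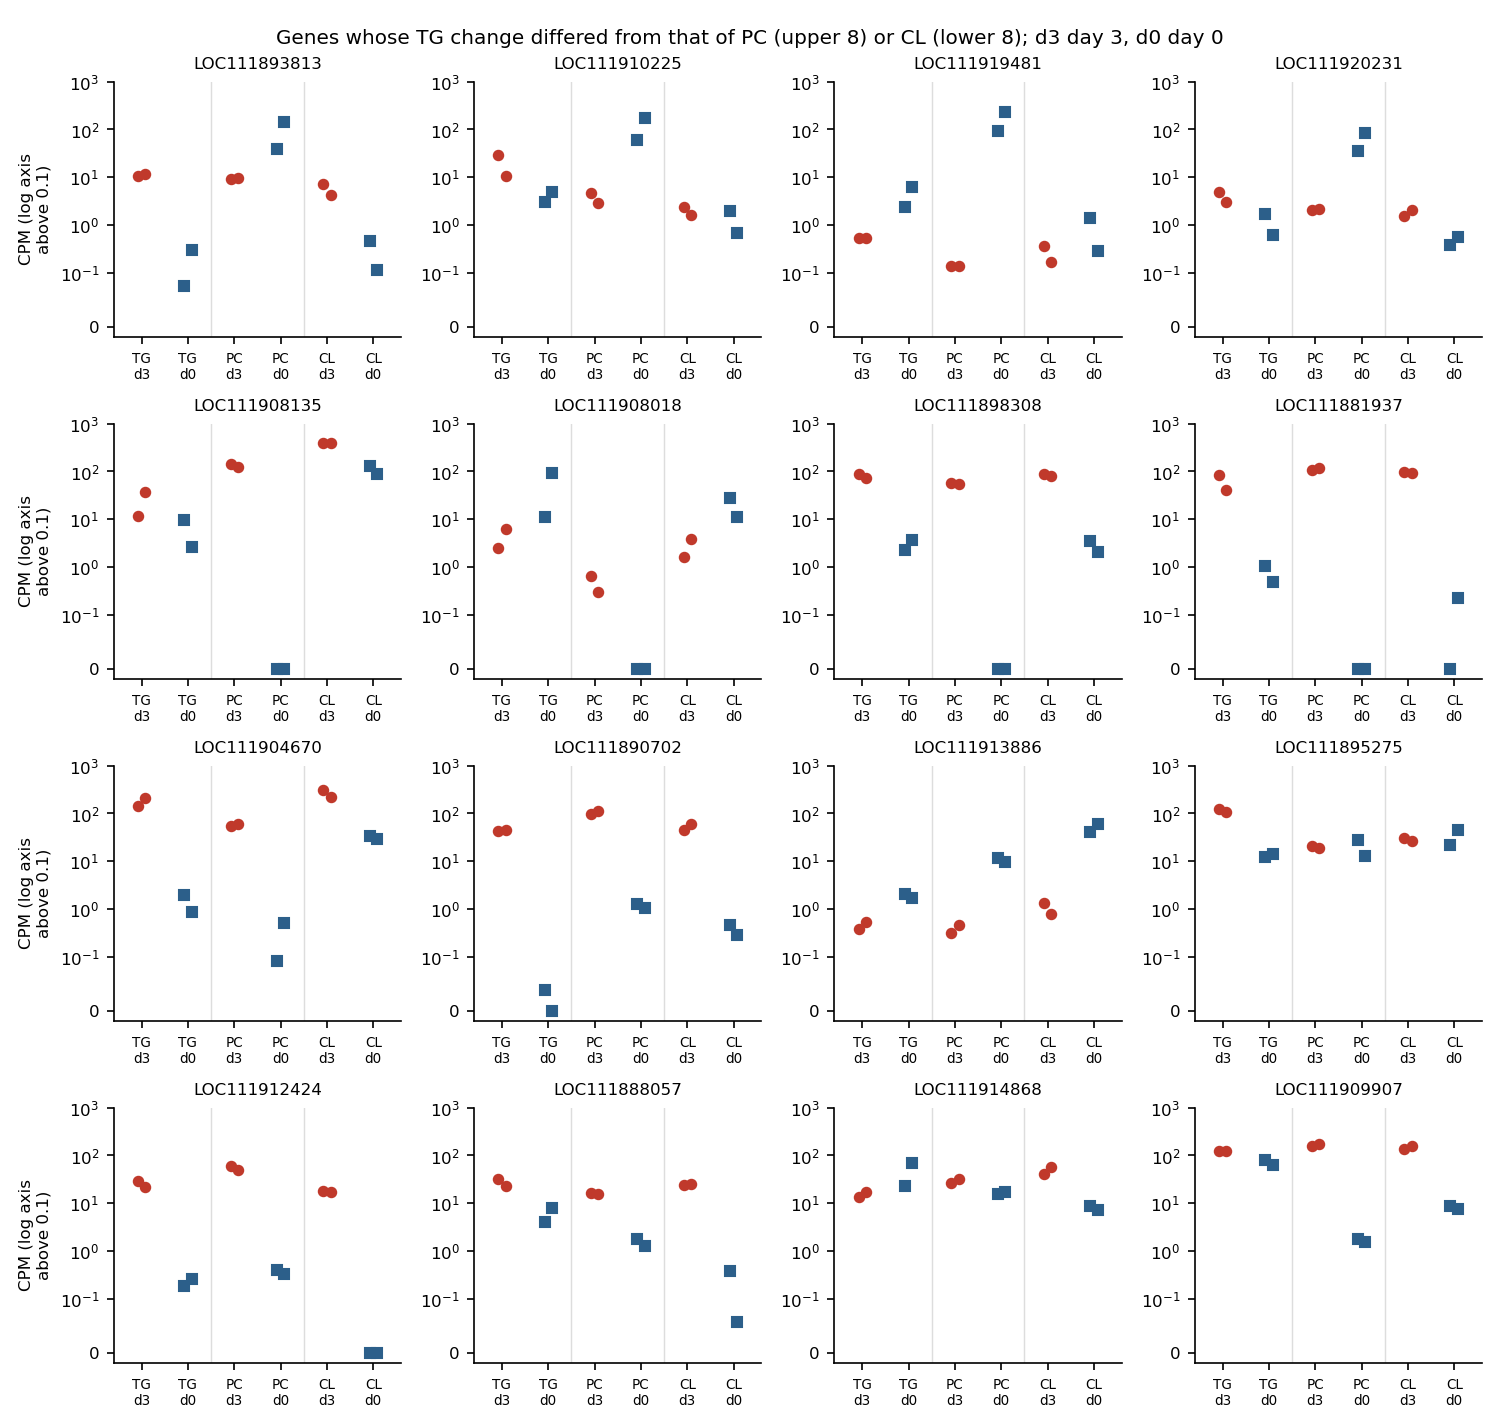
CPM (y axis, log above 0.1 and linear below it) in each day 3 (circles, d3) and day 0 (squares, d0) library of TG, PC and CL for the 8 genes named for a difference between the TG and PC changes (upper rows) and the 8 named for a difference between the TG and CL changes (lower rows). LOC111893813 rises in TG and falls in PC, LOC111909907 is high on day 0 in TG alone, and LOC111895275 is high on day 3 in TG alone.

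A set of 36 genes (0.165%) changed in TG and differed in the same direction from PC and from CL. Both comparisons share the 4 TG libraries, so they are not independent. With a replicate block within cultivar the count was 0. Leaving out TG day 3 replicate 1 or CL day 3 replicate 2 gave a count of 1, CL day 3 replicate 1 gave 2 and TG day 0 replicate 1 gave 170. With another TG, PC or CL library left out it lay between 15 and 32. Of the 36, 26 rose in TG and 10 fell. The day on which TG stood apart can be read from the levels, though levels on both days entered the choice of these genes. Of the 13 that rose less in TG, 13 had both TG day 0 libraries above all 4 day 0 libraries of PC and CL, while on day 3 both TG libraries lay below all those of PC and CL in 3 and above them in 3. Of the 13 that rose more, 11 had both TG day 0 libraries below the others on day 0, and 1 stood above the others on day 3. Of the 8 that fell further, 8 were above the others on day 0 and 3 below them on day 3. Over all tested genes the TG libraries stood above the others for 10.6% on day 0 and 11% on day 3, and below for 8.01% and 10.8%.

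Examples show each kind. LOC111918791 rose less: 367 and 364 CPM on day 3, against 164 and 217 CPM on day 0 in TG (log2 fold change 0.94, adjusted p = 0.0102, and 0.0701 without day 0 replicate 1). PC had 416 and 459 CPM on day 3, against 19.98 and 24.997 CPM on day 0, and CL had 358 and 425 CPM on day 3, against 43.5 and 31.4 CPM on day 0. The TG level was the highest on day 0 and within the range of the others on day 3. LOC111890921 rose more: 118 and 112 CPM on day 3, against 15.035 and 12.8 CPM on day 0 in TG (3.05 ± 0.24 as SE, adjusted p = 5.9e-05). PC had 113 and 136 CPM on day 3, against 67.5 and 62.1 CPM on day 0, and CL had 132 and 112 CPM on day 3, against 55.5 and 90.9 CPM on day 0. Again the day 3 levels met, and TG was the lowest on day 0. LOC111894881 fell further, to 17.2 and 17.0 CPM on day 3 in TG, against 67.8 and 69.1 CPM on day 0 (-2.0 ± 0.20, adjusted p = 0.00015). PC had 10.2 and 9.65 CPM on day 3, against 17.2 and 22.3 CPM on day 0, and CL had 10.4 and 9.91 CPM on day 3, against 9.09 and 12.3 CPM on day 0.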

How the data were processed

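Midrib RNA was sequenced in 18 samples (3 cultivars, 3 storage days, 2 samples each). The deposited counts are whole numbers per NCBI GeneID, 64021 rows a sample; the submitters' processing notes list, without saying what each did, STAR 2.4.0i, featureCounts, DESeq2, R 3.6.1, Trim Galore and FastQC. For the genome build, strand setting and reads with several matches, the sources used here say nothing. The 6 day 2 columns were not used. Rows were summed per GeneID (46150, of which 7574 stood on several rows); 40695 GeneIDs matched the Lsat_Salinas_v11 name table of NCBI, used for symbols, RNA classes and gene order only. In the 12 day 0 and day 3 libraries, totals were 35603537 to 59153901 counts. Of summed counts of 100 or more, 68.3% to 74.6% were even, as can happen when both mates of a pair are counted. The cause of the even share was not tested. Fragments may be fewer than counts, and counting intervals may then be too narrow and lower bounds too high.

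A robust quasi-likelihood model (edgeR 4.0.16, R 4.3.3, filterByExpr by group, TMM factors) took all 12 libraries with 1 mean for each of 6 combinations of cultivar and day, and so a common estimate of spread. Contrasts were tested over 21757 genes with Benjamini-Hochberg adjustment at 0.05. Standard errors are the log2 fold change over the square root of F. Against 0 counts in both libraries, folds are lower bounds at 3 counts per library; with 1 to 3 counts, ratios carry 95% exact (Clopper-Pearson) intervals. The code was tested on simulated data. Alternatives were DESeq2 1.42.0, other scaling factors and filters, fewer libraries and a replicate block. With 2 libraries against 2, an exact permutation test of a single value cannot give a two-sided p below 0.333.

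Genes, lists and rules were chosen with earlier results of these data known. Among called genes with no overlap between the days and the same sign without any TG library, the text names the 8 with the largest rise and fall at a mean of at least 20 CPM on the higher day, the 6 with the largest gain and loss of CPM, and the 4 with the largest difference from PC and from CL each way, at a mean of at least 20 CPM in a group. Lists of browning, stress and other genes and markers of other midrib tissues had been planned by product name or protein motif and were not applied, because products and sequences were not among the sources used here; no sequence is printed. The snoRNA, lncRNA, neighbour and both-cultivar sets, and the 2 enzymes, were added after values were seen.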

Additional observations from a re-analysis of the deposited data

Results flagged for a closer look

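The TG storage change differed from the PC change for 2652 genes and from the CL change for 214, by edgeR's quasi-likelihood test of the difference with Benjamini-Hochberg adjustment, and 36 genes that changed in TG differed from both in the same direction. Among the named genes, the TG minus PC difference in log2 fold change was 9.12 for LOC111893813, 7.25 for LOC111910225, 7.10 for LOC111919481 and 6.58 for LOC111920231. Each of these 4 kept its call under all 15 alternatives run, but their sizes moved: with a library left out they ran from 7.88 to 10.41 for LOC111893813, 6.30 to 7.83 for LOC111910225, 6.25 to 7.97 for LOC111919481 and 5.84 to 7.47 for LOC111920231, each lowest without PC day 0 replicate 2. It was -13.58 for LOC111908135, -11.06 for LOC111908018, -9.58 for LOC111898308 and -9.04 for LOC111881937, all with 0 counts in both PC day 0 libraries, so the sizes depend on the prior count. The calls of LOC111908135 and LOC111898308 held under all 15 alternatives. LOC111908018 lost its call under 8, with adjusted p up to 0.132, and LOC111881937 lost its call without a filter on low counts, at 0.0541.

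The TG minus CL difference was 3.86 for LOC111904670, 3.82 for LOC111890702, 3.50 for LOC111913886 and 3.32 for LOC111895275. It was -5.88 for LOC111912424, -4.51 for LOC111888057, -4.18 for LOC111914868 and -3.36 for LOC111909907. LOC111909907 lost its call under 1 alternative, at an adjusted p of 0.0728, and the other 7 under 5 to 9 of the 15 alternatives, with adjusted p up to 0.19. LOC111890702 had a difference of 3.02 when TG day 0 replicate 2 was left out and 6.89 when its replicate 1 was, and LOC111888057 a difference of -6.47 without CL day 0 replicate 1 and -3.77 without CL day 0 replicate 2. No sample group held the 4 or more samples needed to look for a sample far from the others.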

How the results depend on the processing

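The count of genes changed in TG (5963) stayed within 1.5 times under other scaling, filters, DESeq2 (7501), a 2-fold limit (4114) and the block. It was 3922 with the TG libraries alone and 2638 to 4846 with a TG library left out, lowest without day 3 replicate 1. The PC difference (2652) was 1765 with TG and PC alone, 4448 by DESeq2 and 1007 to 3886 with a library left out. The CL difference (214) was 489 without scaling factors, 493 without a filter, 1462 by DESeq2 and 1 to 678 with a library left out. The 36 genes that differed from both were 60 without scaling factors, 68 without a filter, 23 with only the groups compared, 215 by DESeq2 and 1 to 170 with a library left out. Scaling factors shifted the median difference over all genes, which was -0.04 from PC and -0.04 from CL with them and 0.11 and -0.27 without. A lone library was assumed to vary like the other groups. Deviations of same-numbered libraries from their group means correlated at -0.078 in TG, 0.027 in PC and -0.029 in CL. Correlations near 0 over all genes cannot exclude that same-numbered samples were paired. A replicate block within cultivar gave 4144 genes in TG and 1625 against PC. It gave 0 against CL (2857 at an unadjusted p under 0.05) and 0 for both, with 11 snoRNA genes higher in TG. Of 1294 values recomputed for named genes, 1135 kept direction and side of the threshold, 159 kept direction and lost the threshold, and 0 reversed; 64 of 96 genes kept their call in TG under every alternative. The cause of these moves was not tested. Of genes at 0.1 to 1 CPM, 6.01% rose and 3.28% fell, beside 15.8% and 9.74% at 1 to 10 CPM, and the part of depth in this was not tested.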
